A study of Homo sapiens with 4 samples.

Results

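The RNA that came down with Flag-tagged wild-type AKT1 (Flag-AKT1 WT) was compared with the input RNA of the same cells, peak by peak. All 808 peaks of the Flag-AKT1 WT list were used, out of 5646 peaks in both lists of the series. RNA immunoprecipitation followed by sequencing (RIP-seq) was performed in MDA-MB-231, an established triple-negative breast cancer line, transfected with a plasmid for Flag-AKT1 WT or for Flag-AKT1 E17K, and every library was depleted of rRNA with Ribo-Zero Gold. The tagged protein was made on top of the AKT1 of the cells themselves. Each plasmid had 1 anti-Flag immunoprecipitate (IP) library and 1 input library, 4 in all, so no ratio below has a replicate and every interval or test covers the counting of reads only. PCR copies of a read are not told apart in these counts. The control column of the list was read as the input on the strength of the sample labels. The protocol also mentions beads with control IgG. The Flag-AKT1 E17K pair has its own list of 4838 peaks and is used only where the same genes lie in both lists.

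AKT1 is a serine/threonine kinase of the PI3K pathway that is recruited to membranes by its lipid-binding PH domain and phosphorylates proteins in growth, survival and metabolism. It is not a classical RNA-binding protein, and RIP recovers RNA held directly or through other proteins of the same complex. Abundant RNAs of the cytoplasm, such as ribosomal RNA and mRNAs on ribosomes, also come down with beads. The input measures how abundant an RNA was, but not how much of it was held by beads or antibody. No library of control IgG was available to measure that.

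Inside the 808 peaks the list held 51123 IP reads and 52223 input reads, and the totals of the libraries are not given in the list. A peak held between 12 and 9537 reads of both libraries, with a median of 51.5. The ratio of a peak is IP reads divided by input reads with no scaling to library totals, so only differences between peaks can be read from it. The median ratio was 0.976 and the quartiles were 0.792 and 1.23. Without library totals these values do not show whether the list as a whole was higher in the IP than in the input. None of the 17 genes fixed as markers of basal-like or luminal breast cells had a peak, and none of them is a minus-strand gene of chromosome 4 or X, where most of the list lies, so the line could not be checked with them. AKT1 itself had no peak in the list. Because the list covers few chromosome strands, this does not show that AKT1 RNA was missing from the IP.

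The peaks covered a narrow part of the genome. The strand labelled plus of chromosome 4 had 458 peaks and that of chromosome X had 252, together 87.9% of the list, and the other 98 peaks were spread over 16 chromosome strands, 9 of them with 1 peak. Of all peaks, 99.8% lay in a gene span of GRCh38.p14, compared with 61.6% after all peaks were moved by 1000000 bp, and the rRNA genes fell where that build has them. The submitters' processing notes name hg18, so coordinates are given as in the list and names were taken by their fit to GRCh38.

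The strand label pointed away from the gene. Among 662 peaks that lay in exactly 1 protein-coding span of known strand, 660 carried the label of the opposite strand. The same held for 3169 of 3181 such peaks in the Flag-AKT1 E17K list. The exceptions among the Flag-AKT1 WT peaks were a peak in PIN4 on chromosome X and the deepest peak of the list, in the span of RPS29 on chromosome 14. A gene on the strand opposite to the label is therefore called matched in strand below.

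Peaks gathered towards the 3′ end of genes. Of the 660 peaks, 289 (43.8%) had their centre in the last 20% of the gene span and 40 (6.06%) in the first 20%. Among 672 overlaps with a coding gene matched in strand, 51 peaks reached past the 3′ end of the gene, by a median of 91 bp, and 0 reached beyond the 5′ start. The ratio did not follow this gradient: from the 5′ to the 3′ end, its median over each successive 20% of the span was 1.0, 1.02, 0.924, 0.95 and 0.964.

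The genome sequence of the peaks was not used here, but 4 peaks hold a whole microRNA hairpin whose sequence RefSeq gives (GRCh38.p14), and all 4 hairpins lie on the strand opposite to the label. They are shown because they are stretches of RNA known to lie inside peaks. MIR3143 (chr6:27147626-27147688, plus strand) lies in the peak of the histone gene H2AC12 at chr6:27147471-27147715, which starts in the gene, keeps 92 bp of it and runs 153 bp past its end. The hairpin begins 64 bp after the end of the gene.
MIR3143 hairpin: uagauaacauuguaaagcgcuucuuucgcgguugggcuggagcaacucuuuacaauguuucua
The other hairpins are MIR7111 in a peak of RPL10A, MIR6501 in a peak of SON and MIR4800 in a peak of MXD4, and their mature forms are given with the seed, bases 2 to 8, in capitals. No seed was shared among them.
hsa-miR-7111-5p: uGGGGGAGgaaggacaggccau
hsa-miR-7111-3p: aUCCUCUCuucccuccucccag
hsa-miR-6501-5p: aGUUGCCAgggcugccuuuggu
hsa-miR-6501-3p: cCAGAGCAgccugcgguaacagu
hsa-miR-4800-3p: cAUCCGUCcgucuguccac
The peak with MIR3143 had 205 IP and 152 input reads. That with MIR7111 had 484 and 492, that with MIR6501 had 351 and 358, and that with MIR4800 had 38 and 46. Peaks of 245 bp or more cannot tell a hairpin from the host transcript around it, and none of these 4 peaks passed the test for single peaks, in which the MIR3143 peak had an exact adjusted p of 0.0719 over 808 peaks.

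Reads were summed over the peaks of each gene span. The 318 genes with a peak formed 300 gene units, a unit being a distinct set of peaks, and 147 units had 1 peak. The median ratio of the units was 0.962, with quartiles of 0.828 and 1.16. Each unit was compared with all other peaks by Fisher's exact test, two-sided, with Benjamini-Hochberg adjustment, and 12 of 300 (4.00%) passed an adjusted p of 0.05 above the list and 12 (4.00%) below it. By size, 24 units (8.00%) were at least 1.5-fold above the median ratio and 20 (6.67%) were at least 1.5-fold below it, of which 9 and 4 also passed the test. Among the 180 units with at least 100 reads, 9 were past 1.5-fold above and 3 below. Among single peaks, 15 of 808 (1.86%) passed above and 10 (1.24%) below. The test sets 1 library against another and says nothing of replicate spread. The variance of the peaks around 1 common ratio was 2.56 times what counting alone gives. With the variance inflated by that factor, 8 units stayed above (the rRNA units, LOC110467529 and the RPS29 span) and 2 below (FLNA and HCFC1).

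Among units with at least 100 reads, the highest over input were ribosomal. Shallow units such as CXCL3 (12 IP and 5 input reads, 2.40) reached the same ratios with wider intervals. Ribosomal RNA is transcribed as a 45S precursor from repeated copies, which is cut into 18S rRNA of the small subunit and 28S and 5.8S rRNA of the large subunit. The list had 14 peaks in 3 copies on chromosome 21, with 1176 IP and 680 input reads after the depletion, and 9 of them passed the test above, against 1.86% of all peaks. All 9 were the peaks in 28S. The rRNA reads are those that the depletion left in each library, and whether it was equally complete in IP and input was not tested. RNA28SN2 had 173 IP and 59 input reads, a ratio of 2.93 (95% exact interval 2.17 to 4.01), the highest of all 300 units. RNA28SN3 had 364 and 167 reads (2.18, 1.81 to 2.63) and RNA28SN1 had 329 and 152 (2.16, 1.78 to 2.64). These 3 copies lay above the list alike, but they are near-identical and the reads can have been divided among them in any way.

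Small-subunit rRNA did not share this. The 4 peaks in 18S held 213 IP and 242 input reads in sum, a ratio of 0.880 (0.729 to 1.06), while the 9 peaks in 28S held 866 and 378, a ratio of 2.29 (2.03 to 2.59). The intervals of both regions do not overlap. Whether the depletion removed 18S and 28S alike from each library was not tested. RNA18SN1 was low, with 38 IP and 67 input reads (0.567, 0.371 to 0.857), the lowest ratio among units with at least 100 reads, although its adjusted p of 0.0733 missed the threshold. RNA18SN3 had 75 and 92 reads. RNA18SN2 had a peak of 71 and 70 reads and another further downstream of 29 and 13, so the region was not uniform. The only peak ahead of 18S in the precursor, in RNA45SN1, had 97 and 60 reads (1.62, 1.16 to 2.27, exact adjusted p = 0.0602).

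The 45S spans, which hold the same peaks, were called through their 28S part. RNA45SN2 had a ratio of 1.92, RNA45SN3 of 1.69 and RNA45SN1 of 1.66. LOC110467529, which RefSeq lists as a pseudogene between the RNA45SN2 and RNA45SN3 copies, had 226 IP and 91 input reads in 2 peaks (2.48, 1.94 to 3.20, exact adjusted p = 1.92e-13). The neighbouring 18S pseudogene RNA18SP5 held a peak of 56 and 57 reads and another of 53 and 17, and as a unit missed the threshold (1.47, exact adjusted p = 0.0709).

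In the Flag-AKT1 E17K list, whose median ratio was 2.18, the same order was seen. Its 8 peaks in 28S held 886 IP and 283 input reads (3.13, 2.74 to 3.59), or 1.44 times the list median, and its 4 peaks in 18S held 235 and 141 (1.67, 1.35 to 2.07), or 0.764 times. For Flag-AKT1 WT these were 2.35 and 0.902 times the list median. The plasmids were not tested against each other.

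The deepest peak of the list lay beside a signal recognition particle RNA gene. At chr14:49586901-49587120 it had 5628 IP and 3909 input reads, which is 11% of all IP reads and 7.49% of all input reads in peaks. Its ratio was 1.44 (1.38 to 1.5, Fisher's exact adjusted p = 4.18e-83). The span it lies in is that of RPS29, a protein of the small ribosomal subunit, but RPS29 is on the labelled strand and so is not matched in strand. The peak starts 23 bp after the end of RN7SL1, the gene for 7SL RNA, the scaffold of the particle that brings ribosomes with secretory proteins to the endoplasmic reticulum. RN7SL1 had no peak of its own, and its strand is not in the tables used here.

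The messages of ribosomal proteins were near the typical ratio. Of 8 ribosomal protein genes with a peak, 1 was called above (4.00% of all units were) and 0 below, and the call was the RPS29 span. The others were RPL10A with 645 IP and 624 input reads (1.03), RPS18 with 543 and 519 (1.05), RPS12 with 309 and 285 (1.08), RPL9 with 304 and 291 (1.04), RPL6 with 131 and 133 (0.985), RPS4X with 72 and 52 (1.38) and RPL39 with 32 and 37 (0.865). None of these 7 passed the test, and the 5 with over 200 reads were within 1.13-fold of the unit median. The translation factors EIF4E, which binds the mRNA cap (162 and 175), and EIF1AX, which helps to select the start codon (121 and 141), had ratios of 0.926 and 0.858.

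Beyond the rRNA units, LOC110467529 and chromosome 14, 4 units were called above, all of coding genes, and none of these 4 calls held with the inflated variance. RFC1, the large subunit of the clamp loader of DNA replication, had 152 IP and 101 input reads (1.5, 1.16 to 1.96, exact adjusted p = 0.0163). Its 9 peaks ranged from 1.07 to 2.80 and were shallow, the one with the most IP reads having 28 and 15, and with peaks of at least 50 reads none of RFC1 was left. BOD1L1, which protects stalled replication forks, had 233 and 175 reads in 5 peaks that ranged from 1.11 to 2.44 (1.33, 1.09 to 1.63, exact adjusted p = 0.0296). Its deepest peaks had 80 and 69 reads (1.16) and 57 and 41 (1.39). With peaks of at least 50 reads the call of BOD1L1 was lost (exact adjusted p = 0.0585). Every peak listed had at least 11 IP reads, and the peaks with fewer than 30 reads of both libraries had a median ratio of 1.27. Most RFC1 peaks were that shallow, so their ratios over 1 are not read as a pattern along the gene. The BOD1L1 peaks were deeper, with 31 to 149 reads of both libraries, and all 5 were above the list median.

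ZNF721, a zinc finger gene, had 1 peak of 63 IP and 32 input reads (1.97, 1.27 to 3.11, exact adjusted p = 0.0222), which the span of ABCA11P, a pseudogene of the ABC transporters, shares. SDAD1, which is needed to export large ribosomal subunits from the nucleus, was not called as a gene (277 and 229; 1.21, exact adjusted p = 0.139), yet 1 of its 11 peaks, at chr4:75963981-75964185, had 12 IP and 0 input reads. Its ratio, counted against 3 input reads, was at least 4.00, and the other SDAD1 peaks ranged from 0.632 to 3.00.

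Of 7 histone genes with a peak, 1 was called above, against 4.00% of all units. It was H2AC12 with MIR3143 (205 and 152; 1.35, 1.09 to 1.67), with an exact adjusted p of 0.0383 over 300 units for the reads of the same single peak. Only 92 of the 245 bp of that peak lie in H2AC12, and the unit is not formed if 0.5 of the peak must overlap the gene. The replication-dependent histone genes, whose messages end in a stem-loop instead of a poly(A) tail, were grouped after their values were seen, and all 6 with a peak lay above the unit median. H2BC15 had 165 IP and 120 input reads (1.38), H4C1 had 153 and 122 (1.25), H3C1 had 190 and 153 (1.24), H2BC5 had 403 and 348 (1.16) and H2AC11 had 287 and 249 (1.15). Only H2AC12 passed the test, and the adjusted p of the other 5 ran from 0.0508 for H2BC15 to 0.288 for H2AC11. H2AZ1, a replacement variant made from polyadenylated mRNA, had 495 and 561 reads (0.882). All 6 lie on the minus label of chromosome 6, whose 23 peaks had a median ratio of 1.05. SLBP, the protein that binds the histone stem-loop, had a message with 31 and 38 reads (0.816). In the Flag-AKT1 E17K list, whose unit median was 2.14, H3C1 had 348 IP and 126 input reads (2.76), H2AC12 had 314 and 142 (2.21) and H2BC5 had 519 and 297 (1.75), so H2BC5 lay below the typical ratio there.

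The calls below the list with the smallest p were FLNA and HCFC1 on Xq28. FLNA encodes filamin A, which cross-links actin filaments. It held 2587 IP and 3379 input reads in 19 peaks, the second highest number of reads of any unit (0.766, 0.727 to 0.806, Fisher's exact adjusted p = 3.67e-20), and 18 of its 19 peaks were under the list median. Its deepest peak had 474 IP and 589 input reads, and its lowest ratio was 0.551. The exception was the peak nearest the 5′ end, with 53 and 43 reads. FLNA was thus low along nearly its whole length.

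HCFC1, a chromatin-associated transcription cofactor, was lower still, with 371 IP and 579 input reads in 12 peaks (0.641, 0.561 to 0.731, exact adjusted p = 2.87e-09). Of these peaks 10 were under the list median, and the peak at chrX:153959801-153960400 had 59 and 126 reads (0.468). The others had 12 and 5 reads (2.40) and 59 and 50 reads (1.18). FLNA and HCFC1 were called below under each alternative that was run.

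HUWE1, a large ubiquitin ligase, had 440 IP and 597 input reads in 24 peaks (0.737, 0.650 to 0.835, exact adjusted p = 1.38e-04). Its peaks were mixed, with 15 under the list median and ratios from 0.349 to 1.67. A peak of 15 and 43 reads and another of 13 and 37 passed the test for single peaks. DHX15, an RNA helicase that takes spliceosomes apart, had 440 and 567 reads in 12 peaks (0.776, 0.684 to 0.880, exact adjusted p = 0.00546), with 1 peak of 13 and 38 reads (0.342), the lowest ratio of any peak in the list. ANXA5, a calcium-dependent phospholipid-binding protein, was the weakest call, with 755 and 890 reads (0.848, 0.769 to 0.936, exact adjusted p = 0.0453), and it was lost in 8 of 13 alternatives.

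Of the other units called below, 4 units of coding genes held more than 200 reads. MORF4L2, a subunit of histone acetyltransferase complexes, had 234 IP and 337 input reads (0.694, 0.585 to 0.823, exact adjusted p = 0.00135), and all 3 of its peaks were low. CITED2, a coactivator that competes for CBP and p300, had 136 and 206 reads in 1 peak (0.660, 0.528 to 0.824, exact adjusted p = 0.00727). SETD7, a lysine methyltransferase, had 183 and 255 (0.718, 0.590 to 0.871, exact adjusted p = 0.0222), with 4 of 4 peaks under the list median. GRSF1, which binds G-rich RNA in mitochondrial RNA granules, had 82 and 132 (0.621, 0.466 to 0.825, exact adjusted p = 0.0222).

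The Polycomb protein RYBP had 20 IP and 46 input reads (0.435, 0.244 to 0.750, exact adjusted p = 0.0289) and ZNF609 had 22 and 48 (0.458, 0.263 to 0.774, exact adjusted p = 0.0360). Both are on thinly covered strands. All 5 peaks on the plus label of chromosome 3 were under the list median, with 84 and 181 reads in sum, and ZNF609 was the single peak of its strand. The last low call, LOC102723704, is an lncRNA inside UBE2D3, a ubiquitin-conjugating enzyme. Its 2 peaks had 338 and 435 reads (0.777, 0.672 to 0.898, exact adjusted p = 0.0232), while the 4 other peaks of UBE2D3 had ratios from 0.895 to 2.31 and the whole UBE2D3 unit (463 and 547; 0.846) was not called. Other units of at least 100 reads with low ratios that missed the threshold were RTL8A (71 and 107; 0.664), TFE3 (91 and 133; 0.684), SNX3 (109 and 158; 0.690), KDM5C (74 and 105; 0.705) and TSC22D3 (51 and 72; 0.708).

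The low calls can be set beside the 4.00% of all units called below. Of 85 gene units on the plus label of chromosome X, 4 were called below (FLNA, HCFC1, HUWE1 and MORF4L2) and 0 above. Of 138 units on the plus label of chromosome 4, 5 were called below and 3 above. The median peak ratio was 0.922 on X and 1.0 on chromosome 4, and without FLNA, HCFC1 and HUWE1 it was 0.976 on X. These 3 genes were left out for their low ratios in the same data, so the higher median without them is not a separate result. The median unit ratio was 0.957 on both chromosomes.

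Several of the most abundant messages were indistinguishable from the list. HSP90AB1, the cytosolic chaperone that binds AKT1 as a client, had 2361 IP and 2443 input reads (0.966, 0.913 to 1.02). The architectural chromatin protein HMGA1 had 1349 and 1371 (0.984, 0.912 to 1.06), and WDR1, which promotes actin disassembly, had 1275 and 1348 (0.946, 0.875 to 1.02). ANKRD17 had the most peaks, 25, with 827 and 793 reads in sum (1.04, 0.945 to 1.15), and its single peaks ranged from 0.50 to 2.31 with 12 under the list median. The spread of single peaks within an uncalled gene was therefore as wide as that of many called ones.

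Shallow peaks were higher for their depth. The 167 peaks with fewer than 30 reads had a median ratio of 1.27, while the medians of the deeper groups were between 0.900 and 0.938. Every peak had at least 11 IP reads but input could be as low as 0, so a shallow peak is listed only if its IP reads were not low.

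Among transcript classes, rRNA, which had been depleted from every library, stood apart. The median ratio of the 14 rRNA peaks was 2.16, that of the 10 pseudogene peaks was 1.30, of 38 lncRNA peaks 1.06, of 4 miRNA peaks 0.982 and of 783 protein-coding peaks 0.965, beside 0.976 for all peaks. Of the 38 lncRNA peaks 35 also lay in a coding span, and 0 of the 38 passed the test for single peaks. The pseudogene peaks that passed were those of LOC110467529 (2 peaks), RNA18SP5 and ABCA11P.

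Strand separated lncRNAs that can own their peak from those that cannot by the pattern of the list. Of 22 lncRNAs with a peak, 7 were matched in strand, 7 were on the labelled strand and 8 had no strand in the tables. The matched ones included SNHG32, a host gene of small nucleolar RNAs, with 257 IP and 278 input reads (0.924, 0.777 to 1.10), MIR924HG with 71 and 56 (1.27, 0.881 to 1.83) and LOC124900706 with 12 and 6 (2.0, 0.695 to 6.49). These 3 were the lncRNAs with a peak in no coding span, and all their intervals include the median unit ratio of 0.962. SNHG3, which overlaps RCC1, had 13 and 24 reads (0.542), and THAP9-AS1, which overlaps SEC31A, had 102 and 115 (0.887). The 7 on the labelled strand, such as NOP14-AS1 (104 and 97) and HAFML (66 and 66), had ratios between 0.810 and 1.31 and each overlaps a coding gene. No lncRNA was called above, and the only one called below was LOC102723704, whose strand is not in the tables used here and whose 2 peaks also lie in UBE2D3, which is matched in strand.

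The 14 gene lists, without the later group of 6 histone genes (median 0.38), were described by their medians on the log2 scale relative to the unit median. They ran from -0.18 to 0.21, and the PI3K-AKT list of 1 gene had 0.27, beside 0 for all 300 units. Of all units 4.00% were called above and 4.00% below, and each list below had at most 3 calls in a direction. Ubiquitin and proteasome genes had a median of -0.18, with 3 of 13 above the unit median and HUWE1 called below; after HUWE1 and UBE2D3, the members with most reads were RLIM (355 and 349; 1.02) and OTUD4 (295 and 329; 0.897). The 3 genes of the actin and membrane skeleton had a median of -0.18, and FLNA and ANXA5 were called below. The 18 chromatin and histone genes were split, with a median of -0.05, H2AC12 called above and HCFC1, MORF4L2 and SETD7 below. The histone H2AZ1 (0.882) and the chromatin protein HMGB2 (158 and 144; 1.10) were not called.

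The 16 genes of mitochondrial proteins had a median of 0.17 and no call, with LETM1 (402 and 466; 0.863), ATP5F1B (260 and 323; 0.805), ACSL4 (223 and 210; 1.06) and HSD17B10 (178 and 178; 1.0) as the deepest. The 13 RNA-binding and splicing proteins had a median of 0.04 with DHX15 called below; RBMX (483 and 567; 0.852), HNRNPDL (384 and 388; 0.990) and HNRNPD (327 and 378; 0.865) were not called. Cell cycle genes had a median of -0.03, with RFC1 called above and CCNI (452 and 552; 0.819) just missing the threshold at an adjusted p of 0.0512. CCNA2 (98 and 125; 0.784) and CENPU (70 and 73; 0.959) were not called.

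No call was made among 5 genes of chemokines, cytokines and growth factors (PDGFC 142 and 174, VEGFC 66 and 66, FGF13 56 and 47, CXCL2 40 and 42), 5 of the lysosome (IDS 394 and 463, SCARB2 215 and 225, LAMP2 187 and 201, GLA 44 and 35) or 3 of chaperones (HSP90AB1, CALR with 165 and 202, DNAJB14 with 27 and 15). The list of small GTPases, with 4 genes, had no call either (RAP2C 81 and 72, RAB28 26 and 20, RAB33A 23 and 32, ARLN 11 and 10). ARLN entered it by its symbol only and is not a small GTPase. RAB33A holds the same peaks as AIFM1. The zinc finger list had 4 genes, with ZNF721 called above, ZNF609 below, and ZNF518B (36 and 29) and ZNF827 (26 and 26) not called. In the PI3K-AKT list only RPS6KA3, a ribosomal S6 kinase, had peaks, with 36 and 31 reads (1.16). It entered by its RPS6K symbol, which does not by itself place it in that pathway.

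Few genes could be set beside the Flag-AKT1 E17K pair. Of the 300 units, 36 (12%) had a gene with a peak in that list as well, which is 2.03% of its 1776 units. They include 8 of the units called above, namely the 6 rRNA units, LOC110467529 and H2AC12, and 0 of those called below, so FLNA, HCFC1 and HUWE1 have no counterpart. None of the 36 lies on chromosome 4 or X, where most units called below lie. The split is therefore not read as a difference between high and low calls. LOC110467529 had 213 IP and 60 input reads there (3.55), against a unit median of 2.14.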

How the data were processed

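RIP-seq libraries of MDA-MB-231 cells were analysed from the peak list that the authors deposited for Flag-AKT1 WT, with 1 IP and 1 input library. The deposited counts are whole reads per peak, not normalized. The deposited p-values were used only to rank peaks in an alternative. Per the labels' processing notes, Bowtie2 2.2.8 and hg18 were used, without their roles. The peak caller is not given in the sources used here. The list holds no library totals, so depth is known only inside peaks.

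Peaks were named by overlap of at least 1 bp with RefSeq spans of GRCh38.p14, and gene strands came from the RefSeq promoter and miRNA tables. Fisher's exact test (scipy 1.17.1, Python 3.11.15) was applied per peak and per gene unit with Benjamini-Hochberg adjustment at 0.05. Input of 3 reads or fewer counted as 3. Intervals are 95% Clopper-Pearson intervals. The test was checked on simulated data. Named were all called units, the 10 highest and 10 lowest ratios among units of at least 100 reads, the 5 units with most reads, up to 4 genes with most reads per list, and lncRNAs with a peak outside coding spans. Genes named beside these, such as SDAD1, ANKRD17, the smaller histone and ribosomal protein genes, SLBP and other lncRNAs, were chosen after their values were seen. The members and gene lists were chosen with earlier results of these data known. Calculations used numpy 2.4.6 and pandas 2.3.3, and plots matplotlib 3.10.9.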

Additional observations from a re-analysis of the deposited data

How the results depend on the processing

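No direction was reversed for any of the 24 called gene units under the alternatives run, and 10 of them stayed past the threshold in each alternative that kept their peaks and spans: FLNA, HCFC1, LOC110467529, the RPS29 span and the 6 rRNA units. Of 72 recomputed counts, 45 were within 1.5 times the value reported and 27 were not. With the variance inflated, 2 peaks lay above and 0 below, and 2 genes below. At an adjusted p of 0.01, 3 peaks and 6 genes lay below. With peaks of at least 50 reads, 19 genes lay below by the test, and 12 and 13 were past 1.5-fold above and below. Without rRNA peaks, 5 peaks and 6 genes lay above. On the plus labels of chromosomes 4 and X alone, 1 peak lay above and 2 below, 5 genes above and 4 below, and 15 and 7 genes were past 1.5-fold above and below. With the peaks of lower authors' p-value, 12 and 8 genes were past 1.5-fold above and below. With peaks in exactly 1 span, 5 genes lay above, since the rRNA copies share theirs. At 2-fold in place of 1.5-fold, 10 and 7 genes were left. Chosen after seeing the data were the alternatives that leave out the rRNA peaks together with the deepest peak (6 peaks above and 4 below, 6 genes above and 4 below), that leave out genes of the labelled strand (no count moved past 1.5 times; the RPS29 span was lost) and that keep units of at least 100 reads, against their own median (10 and 2 genes past 1.5-fold above and below). Because each peak or gene is set against all others, the deep peaks shift the rest: ANXA5, LOC102723704, SETD7 and ZNF609 lost their call without the deepest peak. Few reads limit most single peaks, whose median was 51.5 reads of both libraries. No paired analysis was possible because each group has 1 library.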

Other observations

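MDA-MB-231 messages of 4 X-linked genes from families of cancer-testis antigens were picked after their values were seen. Their ratios ran from 0.855 to 1.30, beside the median unit ratio of 0.962. The group was not complete, as CSAG1 on X, left out of it, had 19 and 14 reads (1.36) and was not called. MAGEA6 had 208 IP and 194 input reads (1.07), MAGEA2 had 47 and 55 (0.855), LAGE3 had 14 and 14 (1.0) and SPANXD had 13 and 10 (1.30). None of the 4 passed Fisher's exact test, with adjusted p from 0.731 to 1.0, and reads of MAGEA2 and MAGEA6 cannot be told apart from those of near-identical copies.

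The 2 peaks in no gene span were not called. The peak at chr4:83087731-83088550 had 16 IP and 13 input reads, and that at chr6:35471591-35471835 had 151 and 156.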
